A study of Mus musculus with 17 samples.

Results

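Common lymphoid progenitors (CLP) were compared with lymphoid-primed multipotent progenitors (LMPP), on 4 of the 17 arrays of the series: the 2 arrays titled CLP and the 2 titled LMPP. The arrays, of the Affymetrix Mouse Gene 2.0 ST type, measured RNA of 9 sorted mouse populations. The other 7 were hematopoietic stem cells (HSC), flt3+ and flt3- common myeloid progenitors (CMP), early innate lymphoid progenitors (EILP, 1 array), natural killer (NK) cells, early thymic progenitors (ETP) and DN3 thymocytes. Both CLP and LMPP were sorted from bone marrow of chimeras: marrow of TCF-1 GFP reporter donors had been injected into B6 CD45.1 recipients after a lethal dose of 900 rads, and 12 weeks were allowed for reconstitution. Both populations therefore carried the reporter and regrew in an irradiated host, and cells of several mice were pooled for each sample. The sorting gates, the mice's ages and the number of mice in a pool were not stated in those sources, nor was it stated that replicates came from separate mice. The p-values thus rest on the spread between replicate arrays, pooled over the replicated populations of the series, and that spread may be technical. In bulk samples, fewer cells of a type and less RNA per cell cannot be told apart.

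LMPP are multipotent cells that have lost most erythroid and megakaryocytic potential, keep myeloid and lymphoid potential, and show the cytokine receptor Flt3. CLP lie downstream of them, respond to interleukin 7 through Il7r, and feed the B lineage, NK cells and other lymphoid cells. The B program is known to start with the E protein encoded by Tcf3 and with Foxo1, which activate Ebf1. Ebf1 in turn activates Pax5 and the genes of the pre-B cell receptor, a signalling complex in which the surrogate light chain proteins Igll1 and Vpreb stand in for an antibody light chain.

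The levels are log2 values per probe set, and a difference is the CLP mean minus the LMPP mean (n = 2 against 2), so that 1 unit is 2-fold. Its standard error (SE) comes from the limma fit. The spread behind the SE was pooled over the replicated populations of the series and drawn toward a value shared by all genes. The SE is therefore not the spread of the CLP and LMPP arrays alone. Rose, fell and called mean a limma adjusted p under 0.05 over all 22180 genes tested. The median of all values was 4.54, and where 1 side of a difference lies below it, the size is uncertain. Of the 22180 genes, 1321 (5.96%) were called, 832 (3.75%) higher in CLP and 489 (2.2%) lower, and 825 of them (3.72% of all genes) differed at least 2-fold. These counts rested on all 4 arrays: 749 genes were called without CLP replicate 1, 636 without CLP replicate 2, 708 without LMPP replicate 1 and 717 without LMPP replicate 2. Centring each array on its median moved the median difference of all genes by 0.10 and gave 1094 higher and 355 lower, 75.5% higher against 63.0% in the deposited scaling.

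The array values bore out the labels as far as the fixed markers were measured. Il7r, Ly6d, Igll1 and Ebf1 were high in CLP, Kit was lower there than in LMPP, and Cd34, Kit, Flt3 and Meis1 were high in LMPP. Rag1 and Ly6a were not analysed here. The CLP arrays also held more transcript of mature neutrophils: 20 of 26 late neutrophil markers rose (13 without CLP replicate 2 or without LMPP replicate 2), and the mean level of the 26 was 10.02 and 10.14 in CLP against 8.77 and 8.63 in LMPP. All 4 measured red cell markers rose, with mean levels of 7.22 and 7.13 against 5.18 and 5.03. The 3 Y-linked genes rose and Xist, the transcript of the inactive X chromosome, fell from 11.51 and 11.60 in LMPP to 8.97 and 9.44 in CLP, so the sex of the donor cells and the population cannot be told apart.

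To set neutrophil transcripts aside, 521 genes were found that followed the mean of Ltf, Camp and Ngp, granule genes of maturing neutrophils, with a correlation above 0.8 over the 9 marrow arrays outside this comparison. With the late markers they made 524 genes, 2.36% of all. They held 231 (27.8%) of the higher calls and 1 (0.204%) of the lower calls, which left 601 genes higher and 488 lower. The set is not made of neutrophil genes alone: Bcl11b, a T lineage factor, and Jchain, the joining chain of secreted antibodies, also met the criterion. In the EILP array, the late neutrophil markers had a mean level of 10.27, the red cell markers 7.20 and Eif2s3y, a Y-linked gene, a level of 8.56 (8.56 and 8.74 in CLP). Of the 30 B program genes that rose in CLP, 27 lay nearer to LMPP than to CLP in that array, while all 20 late neutrophil markers and all 4 red cell markers that rose, and 22 of the 23 multipotent genes that fell, lay nearer to CLP. The share of all called genes nearer to either population in that array was not counted. The part of neutrophil and red cell transcripts in these results was not tested.

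**Figure D1:**
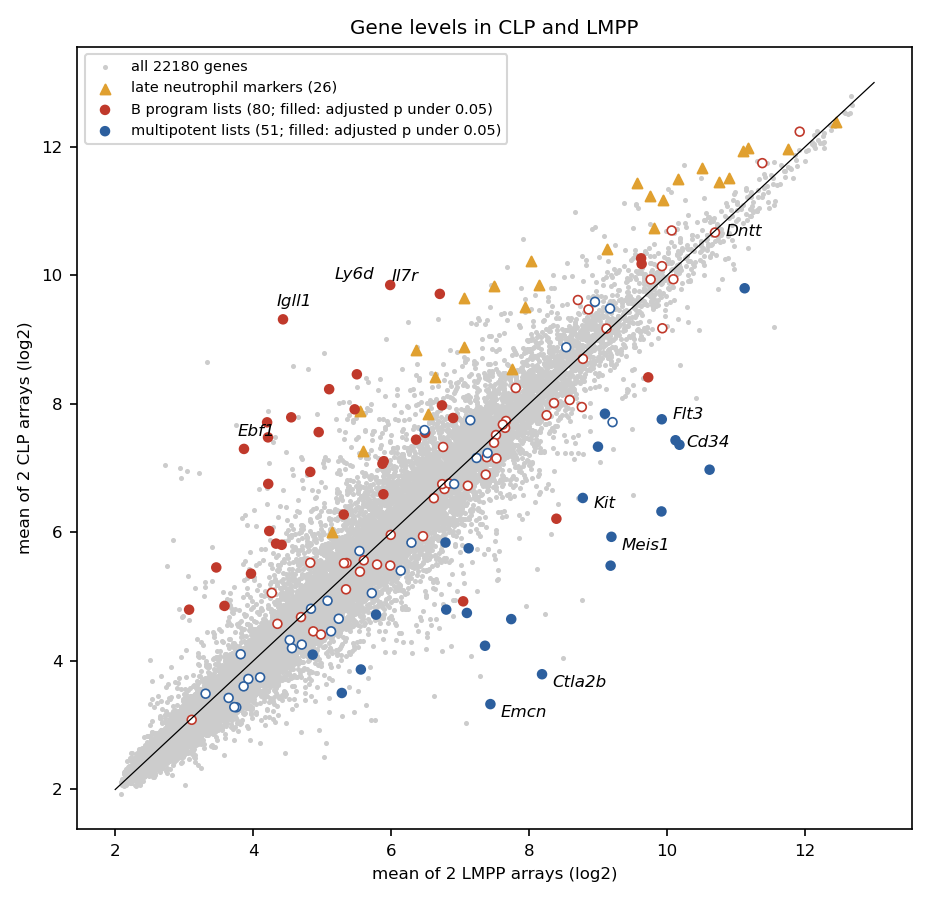
Mean log2 level of each of 22180 genes in the 2 LMPP arrays (x axis) and the 2 CLP arrays (y axis), with the line of equality; red circles are B program genes and blue circles multipotent genes (filled where the adjusted p was under 0.05), and orange triangles are the 26 late neutrophil markers. Igll1, Ly6d, Il7r and Ebf1 lie far above the line, Emcn, Ctla2b and Meis1 far below it, and Dntt on it.

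The B program was described by 5 lists. Of 80 measured members, 30 rose (37.5%, against 3.75% of all genes), 3 fell (Sox4, Il12rb2 and Cd27) and 47 were not called. The 30 include 2 genes set aside as following neutrophil transcripts, Bst1 and Cd52. With those transcripts left out of the fit, 28 rose. The transcription factor and pre-B receptor lists held 21 of the 30, among them Cecr2, which was listed because of earlier results of these data. The recombination and interleukin 7 lists had medians of -0.03 and -0.08. The median difference over the 80 was 0.22, against -0.05 over all genes. The groups of arrays did not overlap for any of the 30 genes. Of the 30, 25 rose at least 2-fold (2.47% of all genes). A call selects for both features. Among all 832 higher calls, 548 reached 2-fold. Called or not, both CLP arrays lay above both LMPP arrays for 20.2% of all genes. The same held for 11 of 18 transcription factors and 11 of 14 pre-B receptor genes, Cecr2 on the list. It held for 5 of 13 recombination genes, 5 of 17 interleukin 7 genes and 10 of 18 surface proteins. The lists and the members were chosen with earlier results of these data known, so their counts are a description.

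Among the transcription factors of the B lineage, 10 of 18 rose (6 without LMPP replicate 2), 1 fell and 7 were not called. Ebf1, the factor that specifies the B lineage, stood at 7.03 and 7.57 in CLP and at 4.07 and 3.66 in LMPP, a difference of 3.43 ± 0.32 or 10.8-fold (adjusted p = 2.5e-05). Both CLP arrays lay above each of the 15 other arrays of the series, whose population means ran from 3.47 in ETP to 4.71 in NK. Pax5, which commits cells to the B lineage, was at 6.26 and 7.62 in CLP and at 5.04 and 4.61 in LMPP, a difference of 2.11 ± 0.33 (adjusted p = 0.0016). The CLP arrays were apart from LMPP but differed from each other by 1.36, more than for any other factor of the list.

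Lef1, a DNA-binding partner of beta-catenin that early B and T cells use, was at 7.30 and 7.66 in CLP and at 4.35 and 4.08 in LMPP (3.26 ± 0.23, adjusted p = 2.1e-06). Its rise was not found in CLP alone, since DN3 cells stood at 8.80 and NK cells at 7.10. Pou2af1, a coactivator of antibody gene transcription, was at 7.45 and 8.38 against 5.83 and 5.11 (2.44 ± 0.33, adjusted p = 0.00054). Spib, an Ets factor of B and plasmacytoid dendritic cells, was at 4.99 and 4.61 against 3.12 and 3.02 (1.73 ± 0.21, adjusted p = 0.0002). For each of these 3 factors the CLP and LMPP arrays were apart, and for Spib the LMPP side lay below the median of all values.

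The factors placed upstream of Ebf1 rose less. Tcf3, the E protein gene, was at 6.93 and 7.20 in CLP and at 5.81 and 5.94 in LMPP (1.2 ± 0.21, adjusted p = 0.0033), and Foxo1 was at 6.62 and 6.57 against 6.0 and 5.77 (0.71 ± 0.14, adjusted p = 0.0092). The other E protein genes, Tcf4 and Tcf12, differed by -0.00 ± 0.25 and -0.02 ± 0.15 and were not called. Tcf3 kept its call in every alternative. Foxo1 lost its call in 6 of 15, among them the fits without CLP replicate 1, CLP replicate 2 or LMPP replicate 2. Over the alternatives the Foxo1 difference ran from 0.33 to 0.82, and the second Foxo1 probe set differed by only -0.05.

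Bach2, a repressor that holds back plasma cell genes, rose by 1.22 ± 0.25 (adjusted p = 0.011). Irf4, which with its relative Irf8 drives light chain rearrangement, was at 5.28 and 6.34 in CLP against 4.58 and 4.24 (1.39 ± 0.28, adjusted p = 0.0091). Ikzf3, the Ikaros family member Aiolos, was at 5.35 and 4.36 against 3.77 and 3.40 (1.27 ± 0.28, adjusted p = 0.014), and was far higher in NK cells at 7.51. Each of these 3 calls depended on single arrays. Bach2 had an adjusted p of 0.13 without CLP replicate 2, 0.053 without LMPP replicate 1 and 0.076 without LMPP replicate 2. Irf4 had 0.095 without CLP replicate 2 and 0.085 without LMPP replicate 2, and Ikzf3 had 0.15 without CLP replicate 1 and 0.12 without LMPP replicate 2.

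Sox4, which supports survival of early B and T precursors, fell from 9.82 and 9.63 in LMPP to 8.27 and 8.56 in CLP (-1.31 ± 0.21, adjusted p = 0.0019). Bcl11a differed by -0.81 ± 0.36, Mef2c by -0.75 ± 0.24, Ikzf1 by 0.05 ± 0.19 and Myb by -0.15 ± 0.14, and none was called. Irf8 differed by 0.91 ± 0.30 (adjusted p = 0.11), and its second probe set by 1.74, and the mean of both probe sets was called (1.32, adjusted p = 0.00038).

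**Figure D2:**
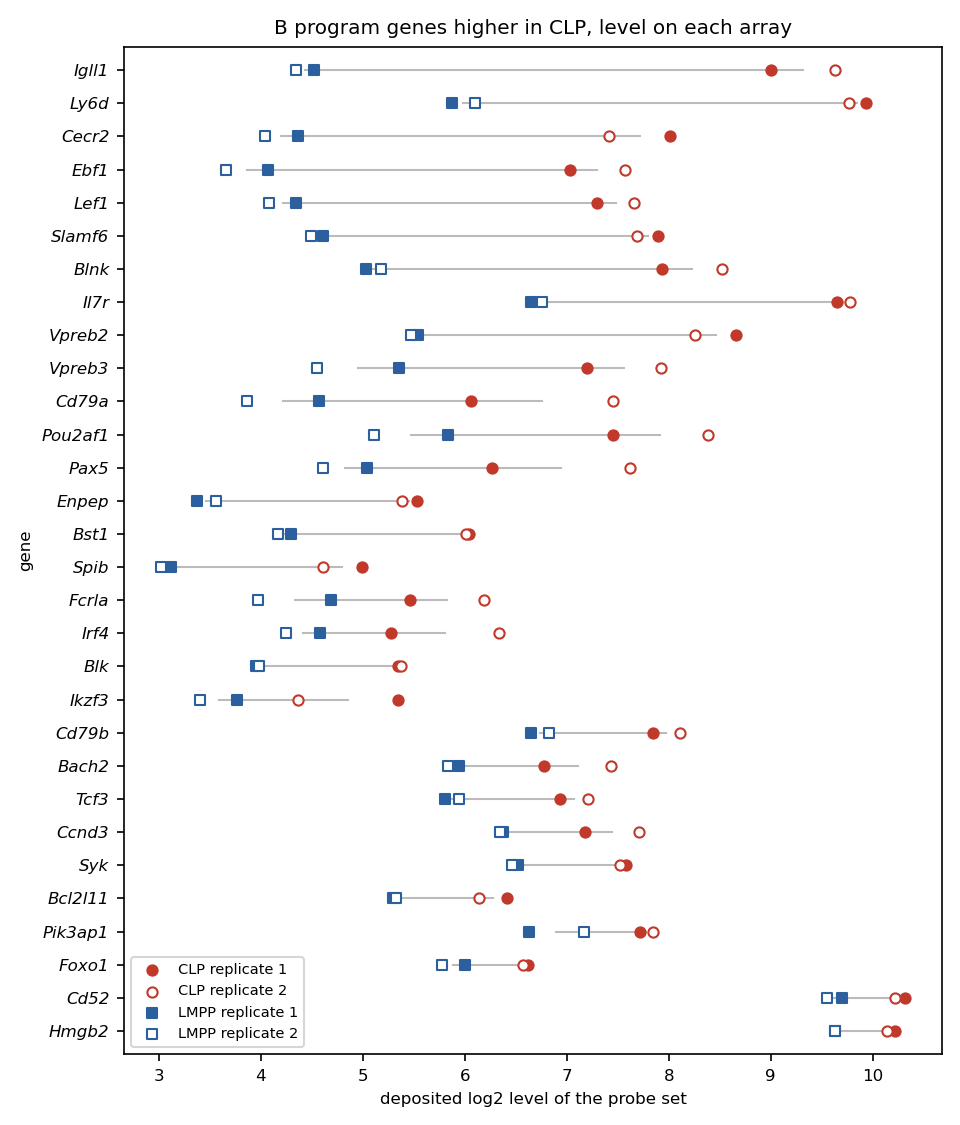
Deposited log2 level (x axis) of the 30 B program genes that rose in CLP (rows, ordered by difference) on each of the 2 CLP arrays (red circles) and 2 LMPP arrays (blue squares), with a grey line between the means. The arrays of the populations do not overlap for any gene, and the largest gap, 4.88, is that of Igll1; levels of different genes cannot be compared with each other on this scale.

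The list of the pre-B cell receptor and its signalling proteins held the largest rise of the B program, with 11 of 14 members higher and none lower. The 11 include Cecr2, a chromatin remodelling factor listed because of earlier results of these data. Its part in the count was thus fixed in advance. Igll1, the lambda 5 protein of the surrogate light chain, was at 9.0 and 9.63 in CLP and at 4.52 and 4.35 in LMPP, a difference of 4.88 ± 0.28 or 29.5-fold (adjusted p = 3.6e-07). In the 7 other populations its mean level ran from 4.14 in EILP to 4.67 in NK. Vpreb2, its partner in the surrogate light chain, was at 8.66 and 8.26 against 5.54 and 5.47 (2.96 ± 0.17, adjusted p = 4.5e-07). Each gene stayed within a narrow range outside CLP, the means of Vpreb2 running from 4.93 in EILP to 5.43 in flt3+ CMP.

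The Vpreb1 probe set stood at 2.99 and 3.18 in CLP and at 3.27 and 2.95 in LMPP (-0.02 ± 0.18, adjusted p = 0.98), among the lowest values of the table, and at 3.10 to 3.51 in the mean of each other population. Vpreb1 and Vpreb2 are near-identical copies, and how transcripts of the pair are divided between their probe sets was not tested. Vpreb3, a related protein of the assembly of the receptor, rose by 2.61 ± 0.28 (7.20 and 7.92 against 5.35 and 4.55, adjusted p = 8.5e-05).

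Promoters of 5 members are given below, as the 250 bases before the annotated start site of each gene on its own strand, from RefSeq (build GRCm38.p6). Capitals mark matches, on either strand, to the E boxes CAGGTG and CAGCTG, the kinds of site that E proteins bind, and to GGGAAT, which is part of the site that Ebf1 binds. Igll1 (chr16:16863986-16864235, minus strand), Vpreb2 (chr16:17980315-17980564, plus strand), Cd79a (chr7:24897247-24897496, plus strand) and Blnk (chr19:40994222-40994471, minus strand) are shown as genes that rose and hold CAGGTG, and Vpreb1 (chr16:16869256-16869505, minus strand) as the copy of Vpreb2.
Igll1: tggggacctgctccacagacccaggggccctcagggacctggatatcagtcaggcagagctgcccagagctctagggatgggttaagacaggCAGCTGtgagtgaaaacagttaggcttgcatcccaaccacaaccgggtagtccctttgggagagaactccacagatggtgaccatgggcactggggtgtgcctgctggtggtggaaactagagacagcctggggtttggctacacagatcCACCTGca
Vpreb2: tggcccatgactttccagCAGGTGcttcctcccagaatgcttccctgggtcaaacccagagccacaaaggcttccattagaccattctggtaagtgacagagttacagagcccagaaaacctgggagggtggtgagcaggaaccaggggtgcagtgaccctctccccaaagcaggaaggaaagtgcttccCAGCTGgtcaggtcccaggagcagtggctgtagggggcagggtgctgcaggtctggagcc
Cd79a: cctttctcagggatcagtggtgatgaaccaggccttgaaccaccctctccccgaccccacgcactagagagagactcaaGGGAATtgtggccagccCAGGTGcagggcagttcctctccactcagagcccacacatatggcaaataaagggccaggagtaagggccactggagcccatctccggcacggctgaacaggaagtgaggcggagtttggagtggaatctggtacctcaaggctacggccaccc
Blnk: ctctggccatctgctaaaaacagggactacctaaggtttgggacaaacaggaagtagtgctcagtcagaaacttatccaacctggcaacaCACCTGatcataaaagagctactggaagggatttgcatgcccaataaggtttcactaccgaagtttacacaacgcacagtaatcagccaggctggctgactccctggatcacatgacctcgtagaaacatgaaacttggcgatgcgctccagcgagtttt
Vpreb1: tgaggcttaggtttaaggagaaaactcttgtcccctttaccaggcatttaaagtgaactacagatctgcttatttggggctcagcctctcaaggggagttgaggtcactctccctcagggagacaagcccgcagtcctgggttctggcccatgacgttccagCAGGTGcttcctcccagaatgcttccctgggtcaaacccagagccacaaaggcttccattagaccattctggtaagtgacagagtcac

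CAGGTG lay in the 250 bases of 9 of the 11 pre-B receptor genes that have a promoter entry, against 19.4% of all 27025 genes with one. Of the 8 among them that rose, 7 held it (Igll1, Vpreb2, Cd79a, Blnk, Syk, Pik3ap1 and Fcrla) and Vpreb3 did not, and Vpreb1 and Plcg2, which were not called, held it too. The match began 8 bases before the start site of Igll1, 154 before that of Cd79a, 160 before that of Blnk, 232 before that of Vpreb2 and 88 before that of Vpreb1. Vpreb1 and Vpreb2 share an identical stretch of 91 bases around it. Among the 16 B lineage transcription factors with an entry, 1 held CAGGTG.

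The other E box, CAGCTG, lay in 2 of the 11 windows (14.7% of all genes) and GGGAAT in 2, those of Cd79a and Vpreb3 (13% of all genes). In all 8 motifs were searched, and the full palindromic site of Ebf1 lay in none of the 11 windows. The shorter CCCNNGGGA, contained in that palindrome, lay in none (6.45% of all genes), and CCCNNGGG, contained in both, in 1 (13.4%). AAGGGAA lay in 2 (7.31%) and TTGNGCAA in none (2.99%). These matches describe the letters of the windows, and no binding was measured.

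The signalling chains of the receptor rose as well. Cd79a was at 6.06 and 7.45 in CLP and at 4.57 and 3.86 in LMPP (2.54 ± 0.39, adjusted p = 0.0015), and its partner Cd79b at 7.85 and 8.11 against 6.65 and 6.82 (1.24 ± 0.19, adjusted p = 0.0014). The 2 CLP arrays differed in Cd79a by 1.39, the widest gap between them among the 30 genes, yet both were above all other arrays. Blnk, the adaptor that links the receptor to phospholipase C, was at 7.93 and 8.52 against 5.03 and 5.17 (3.13 ± 0.21, adjusted p = 1.5e-06).

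The kinase genes did not move alike. Blk, a Src family kinase of B cells, was at 5.35 and 5.37 in CLP against 3.95 and 3.99 (1.39 ± 0.20, adjusted p = 0.00078). Syk, which binds the phosphorylated receptor chains, rose by 1.05 ± 0.28 (adjusted p = 0.042) and lost its call when any 1 of the 4 arrays was left out (adjusted p of 0.18 without CLP replicate 1, 0.16 without CLP replicate 2, 0.16 without LMPP replicate 1 and 0.17 without LMPP replicate 2). Btk, the kinase downstream of Syk, differed by -0.43 ± 0.29 and Plcg2, the phospholipase it activates, by 0.07 ± 0.16, and neither was called: both were already at 7.57 to 8.44 in LMPP.

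Pik3ap1, an adaptor for phosphoinositide 3-kinase, rose by 0.88 ± 0.21 (adjusted p = 0.021) and was not called without CLP replicate 1 (0.078), CLP replicate 2 (0.15) or LMPP replicate 1 (0.23). Fcrla, an intracellular Fc receptor-like protein of B cells, rose by 1.49 ± 0.26 (adjusted p = 0.0035) and was not called without CLP replicate 2 (0.052). Cecr2, a chromatin remodelling factor that was put on this list from earlier results of these data, was at 8.01 and 7.41 against 4.36 and 4.04 (3.51 ± 0.24, adjusted p = 1.7e-06). For 10 of the 11 genes of the list that rose, Cecr2 included in the 11, both CLP arrays lay above all 15 other arrays. In the EILP array all 11 were nearer to LMPP. The shares of all genes with these patterns were not counted.

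Genes of antigen receptor recombination were nearly level between the populations, with 1 of 13 higher, none lower and a median difference of -0.03. Dntt, the terminal transferase that adds bases at the joints, was at 10.60 and 10.74 in CLP and at 10.56 and 10.83 in LMPP (-0.03 ± 0.28, adjusted p = 0.98). The arrays overlapped fully, and the mean of HSC was 6.41, that of flt3- CMP 7.51, of EILP 7.58 and of flt3+ CMP 9.93. Rag2, a subunit of the recombinase, was at 7.27 and 7.39 against 6.73 and 6.78 (0.58 ± 0.26, adjusted p = 0.27), with HSC at 4.49, EILP at 4.25 and DN3 cells at 8.05.

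The end-joining genes Prkdc, Xrcc4, Xrcc5, Xrcc6 and Nhej1 differed by -0.47 to 0.17 and were not called. Lig4, which seals the joint, differed by 0.70 ± 0.24 (adjusted p = 0.12) and belongs to the genes set aside. Hmgb2, a DNA-bending cofactor of the recombinase that also rises in dividing cells, was the 1 member that rose (0.55 ± 0.14, adjusted p = 0.039). Its call was lost without any 1 of the 4 arrays (adjusted p of 0.2 without CLP replicate 1, 0.14 without CLP replicate 2, 0.17 without LMPP replicate 1 and 0.15 without LMPP replicate 2).

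Of 17 genes of interleukin 7 and lymphoid cytokine signalling, 3 rose (1 without CLP replicate 1 or without LMPP replicate 1) and 1 fell. Il7r, the alpha chain of the receptor, was at 9.65 and 9.78 in CLP and at 6.65 and 6.76 in LMPP (3.01 ± 0.28, adjusted p = 2.4e-05). Its mean was 9.85 in DN3 cells, 8.16 in NK, 7.48 in ETP, 6.06 in EILP and 4.14 in HSC, so CLP and DN3 shared the top of the order. Jak1, Stat5a and Stat5b, which carry the signal, differed by -0.08 ± 0.16, -0.09 ± 0.23 and 0.01 ± 0.25, and the feedback genes Cish, Socs1 and Socs3 by -0.52 to -0.30, with no call.

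Bcl2l11, the cell death gene Bim, rose by 0.97 ± 0.19 (adjusted p = 0.0068), and Ccnd3, the D cyclin that pre-B cells need to divide, by 1.08 ± 0.29 (adjusted p = 0.04). Bcl2l11 was not called without CLP replicate 1 (0.075) and missed the threshold by less than rounding shows without LMPP replicate 1 (0.05). Ccnd3 was not called without CLP replicate 1 (0.052), CLP replicate 2 (0.31), LMPP replicate 1 (0.16) or LMPP replicate 2 (0.16). Il12rb2, a chain of the interleukin 12 receptor, fell from 6.90 and 7.19 in LMPP to 4.63 and 5.22 in CLP (-2.12 ± 0.20, adjusted p = 3.6e-05), below the means of all 7 other populations.

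Of 18 surface proteins of early lymphoid and B progenitors, 5 rose (3 with neutrophil transcripts left out), 1 fell and 12 were not called. Ly6d, which marks the CLP that are biased to the B lineage, was at 9.93 and 9.77 in CLP and at 5.87 and 6.10 in LMPP (3.86 ± 0.26 or 14.6-fold, adjusted p = 1.5e-06). Slamf6, a receptor of the signalling lymphocyte activation family, was at 7.89 and 7.69 against 4.61 and 4.49 (3.24 ± 0.24, adjusted p = 3.3e-06). Both were also high in DN3 cells, at 10.69 and 8.56. Enpep, the aminopeptidase known as BP-1 on pre-B cells, was at 5.53 and 5.38 against 3.37 and 3.56 (1.99 ± 0.20, adjusted p = 5.3e-05) and higher than in any other array.

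Bst1, the B cell surface enzyme BP-3, rose by 1.79 ± 0.19 (adjusted p = 7e-05) and Cd52 by 0.64 ± 0.17 (adjusted p = 0.044), and both belong to the genes set aside as following neutrophil transcripts. Cd52 was not called without CLP replicate 1 (0.22), CLP replicate 2 (0.14), LMPP replicate 1 (0.12) or LMPP replicate 2 (0.22). Cd27, a receptor of the tumour necrosis factor family on multipotent and lymphoid progenitors, fell from 8.13 and 8.66 in LMPP to 5.82 and 6.60 in CLP (-2.18 ± 0.24, adjusted p = 0.0001). Ptprc, the leukocyte antigen CD45, differed by 0.63 ± 0.18 (adjusted p = 0.061), Cxcr4 by 0.61 ± 0.20 (adjusted p = 0.099), and Cd93 by -0.22 ± 0.17 (adjusted p = 0.63). Cd24a differed by 0.31 ± 0.17 at the top of the scale of the array and by 1.59 on its second probe set, and the mean of both was called (0.95, adjusted p = 0.0053).

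Of 16 markers of mature B and plasma cells, 3 rose (2 without any 1 of the arrays other than CLP replicate 1). Ms4a1, the CD20 gene of mature B cells, was at 3.09 and 2.91 in CLP and at 3.04 and 2.86 in LMPP, and Fcer2a, Cr2 and Cd40 also lay below the median of all values. Cd22, an inhibitory coreceptor, rose to 5.09 and 4.83 from 3.76 and 3.49 (1.34 ± 0.20, adjusted p = 0.0015), and Mzb1, a secretory chaperone, by 1.07 ± 0.26 (adjusted p = 0.024). Jchain rose from 3.04 and 2.84 to 7.34 and 6.67 (4.06 ± 0.22, adjusted p = 3.1e-07), and was at 6.35 in the EILP array, in which Igll1 (4.14), Ebf1 (3.69) and Cd79a (4.34) were low. The plasma cell genes Sdc1, Prdm1 and Tnfrsf17 differed by -0.27 to -0.16 with no call.

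Genes of stem and multipotent cells moved the other way. Of 51 measured members of 2 lists, 23 fell (45.1%, against 2.2% of all genes), none rose at an adjusted p under 0.05 in limma, and 28 were not called. The median difference was -0.67, against -0.05 over all genes. The arrays of the populations did not overlap for any of the 23 and 21 fell at least 2-fold, but a call selects for both. Among all 489 lower calls, 277 reached 2-fold. Called or not, both CLP arrays lay below both LMPP arrays for 29.6% of all genes. The same held for 16 of 24 transcription factors and 18 of 27 surface proteins and receptors. Cd9, a tetraspanin among the genes set aside, was higher in CLP by 1.11 ± 0.31 (adjusted p = 0.057) and passed the threshold in 7 of 14 alternatives.

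**Figure D3:**
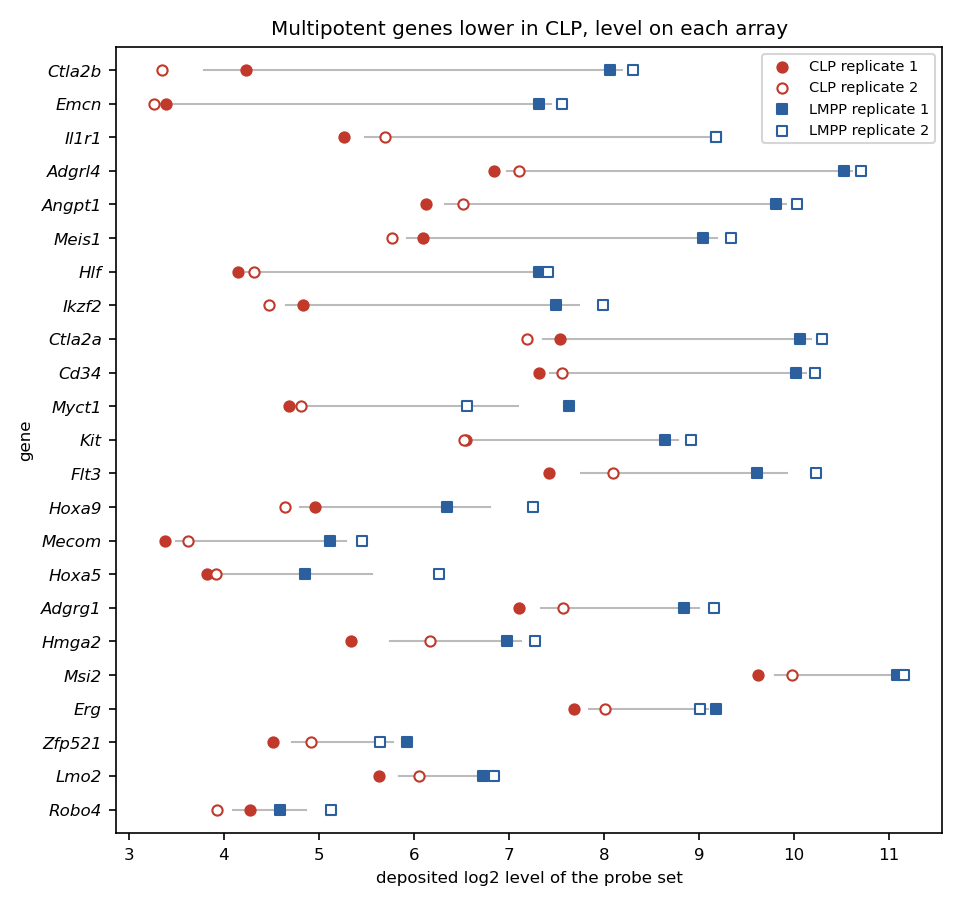
Deposited log2 level (x axis) of the 23 multipotent genes that fell in CLP (rows, ordered by difference) on each of the 2 CLP arrays (red circles) and 2 LMPP arrays (blue squares), with a grey line between the means. The arrays do not overlap for any gene, and the differences run from -0.76 for Robo4 to -4.39 for Ctla2b.

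Among the transcription factors, 11 of 24 fell (7 without CLP replicate 1). Meis1, a homeodomain factor of stem and progenitor cells, was at 6.10 and 5.77 in CLP and at 9.04 and 9.34 in LMPP (-3.26 ± 0.19, adjusted p = 4.5e-07). Hlf, a stem cell factor of the PAR bZIP family, was at 4.15 and 4.32 against 7.31 and 7.41 (-3.12 ± 0.21, adjusted p = 1.7e-06). Ikzf2, the Ikaros family member Helios, was at 4.83 and 4.47 against 7.49 and 7.99 (-3.09 ± 0.21, adjusted p = 1.7e-06). For Meis1 and Hlf the levels in CLP were near those of EILP, at 6.06 and 4.85, while Ikzf2 was lower in CLP than in each of the 15 other arrays.

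Mecom, the stem cell factor Evi1, fell from 5.12 and 5.45 in LMPP to 3.38 and 3.62 in CLP (-1.78 ± 0.19, adjusted p = 7.6e-05), and was at 6.89 in HSC. Hoxa9, which works with Meis1, was at 4.96 and 4.64 against 6.34 and 7.25 (-2.0 ± 0.27, adjusted p = 0.00054). Erg, an Ets factor that maintains stem cells, fell by 1.25 ± 0.20 (adjusted p = 0.0018) and Msi2, an RNA-binding protein of stem cells placed on this list, by 1.32 ± 0.21 (adjusted p = 0.0016). Both still stood well above the median of all values in CLP, at 7.68 and 8.01 for Erg and at 9.62 and 9.98 for Msi2.

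Single arrays decided the calls of the 4 remaining factors. Hoxa5 fell by 1.69 ± 0.45 (adjusted p = 0.042), with LMPP arrays at 4.85 and 6.27, and was not called without CLP replicate 1 (0.18), CLP replicate 2 (0.16) or LMPP replicate 2, where the difference shrank to -0.98 (0.34). Hmga2, a chromatin protein of fetal-type stem cells, fell by 1.37 ± 0.35 (adjusted p = 0.031) and was not called without CLP replicate 1 (0.29), LMPP replicate 1 (0.094) or LMPP replicate 2 (0.18). Lmo2, a bridging protein of the Tal1 complex, fell by 0.94 ± 0.22 (adjusted p = 0.02) and was not called without CLP replicate 1 (0.2), LMPP replicate 1 (0.083) or LMPP replicate 2 (0.12). Zfp521, a corepressor that binds Ebf1, fell by 1.06 ± 0.20 (adjusted p = 0.0069) and was not called without CLP replicate 1 (0.081) or LMPP replicate 1 (0.075).

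The other 13 factors of the list were not called. Runx1, Lyl1, Tal1 and Mllt3 differed by -0.16 to -0.08, Fli1 by 0.34 ± 0.28 and Gfi1b by 0.60 ± 0.25. Gata2, a factor of stem cells and mast cells, differed by -0.58 ± 0.26 (adjusted p = 0.27) and was higher in HSC at 6.14.

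Among surface proteins and receptors, 12 of 27 fell. Kit, the receptor for stem cell factor, was at 6.55 and 6.53 in CLP and at 8.64 and 8.91 in LMPP (-2.24 ± 0.26, adjusted p = 0.00014). Flt3 was at 7.43 and 8.09 against 9.61 and 10.24 (-2.16 ± 0.35, adjusted p = 0.002), and Cd34, a sialomucin of progenitors, at 7.31 and 7.55 against 10.02 and 10.22 (-2.69 ± 0.31, adjusted p = 0.00016). All 3 were lower in both CLP arrays than in both LMPP arrays, and the means in CLP remained above those of NK and DN3 cells for Flt3 and Cd34.

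Emcn, Angpt1 and Adgrl4 each fell by more than 3 log2 units. Emcn, the sialomucin endomucin, was at 3.39 and 3.27 in CLP and at 7.32 and 7.56 in LMPP (-4.11 ± 0.34, adjusted p = 9.1e-06). Angpt1, the ligand angiopoietin 1, was at 6.13 and 6.52 against 9.81 and 10.03 (-3.59 ± 0.18, adjusted p = 3e-07). Adgrl4, an adhesion receptor, was at 6.84 and 7.11 against 10.53 and 10.71 (-3.64 ± 0.20, adjusted p = 3.1e-07). Among genes that define endothelium itself, Kdr and Cdh5 were below the median of all values in all 4 arrays, and none of 12 stromal and endothelial markers was called. In some alternatives, such as quantile normalization, 1 of the 12 was called lower, and with array weights 2 were.

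Il1r1, the interleukin 1 receptor, fell from 9.18 and 9.18 in LMPP to 5.27 and 5.70 in CLP (-3.70 ± 0.31, adjusted p = 9.8e-06), and was as high in ETP (9.46) as in LMPP. Myct1 fell by 2.35 ± 0.34 (adjusted p = 0.001) and Adgrg1, an adhesion receptor of stem cells, by 1.66 ± 0.28 (adjusted p = 0.003). Ctla2b and Ctla2a, cysteine protease inhibitors with very similar sequences whose probe sets may share transcripts, fell by 4.39 ± 0.34 (adjusted p = 5.6e-06) and 2.82 ± 0.26 (adjusted p = 2.4e-05). Robo4 fell by 0.76 ± 0.20 (adjusted p = 0.042) and was not called without CLP replicate 1 (0.062), CLP replicate 2 (0.31) or LMPP replicate 2 (0.32). Markers that define long-term stem cells, Slamf1, Procr, Tek and Esam, differed by -0.44 to -0.22 with no call, and each had a higher mean in HSC than in LMPP.

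**Figure D4:**
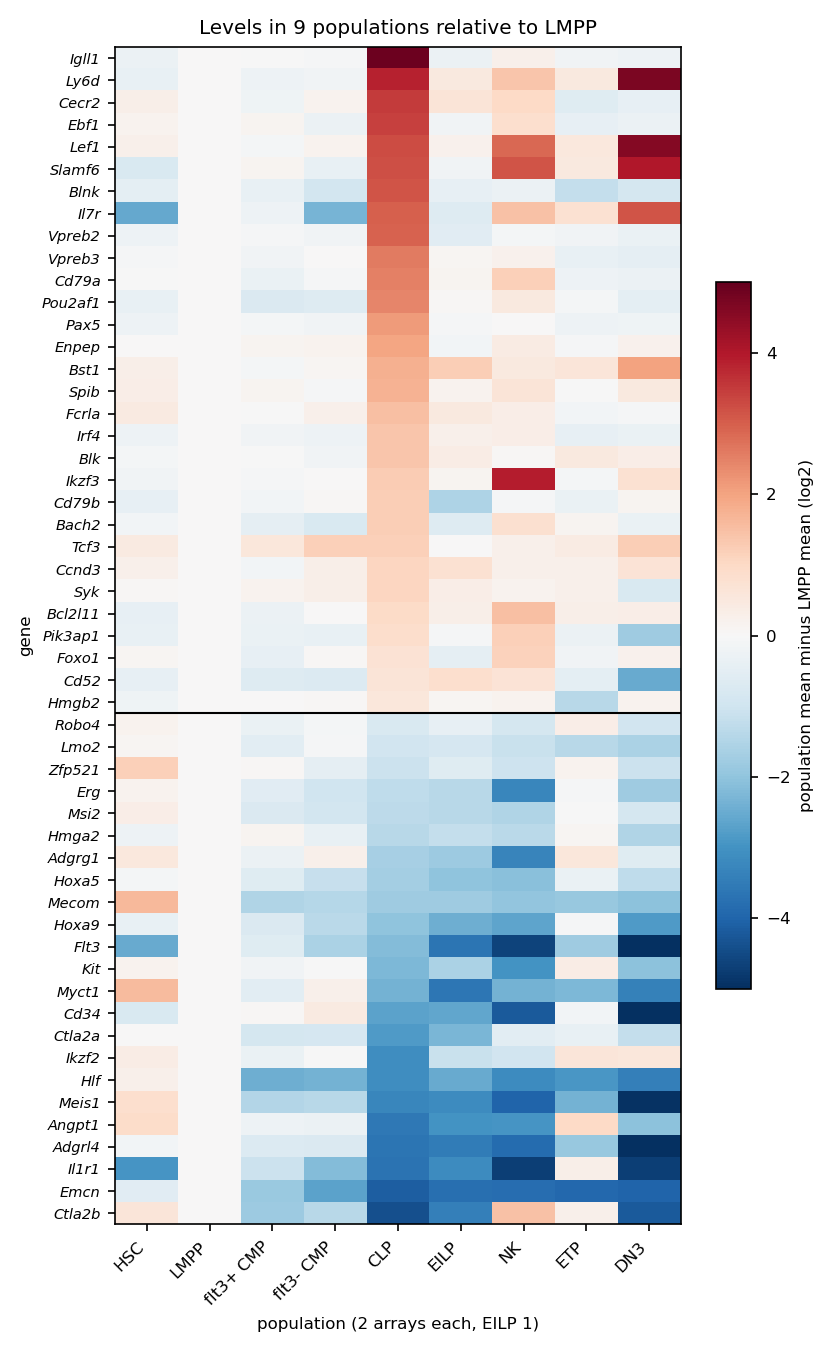
Population mean minus the LMPP mean (colour, log2) for the 30 B program genes that rose in CLP (above the black line) and the 23 multipotent genes that fell (below it), in 9 populations of 2 arrays each, or 1 for EILP. The B program rows are red mainly in the CLP column. Exceptions include Ly6d, Lef1, Slamf6 and Il7r, also red in DN3, and Lef1 and Ikzf3, also red in NK. The blue of the multipotent rows continues from CLP into EILP. Low levels were also common in NK and DN3, where the mean was above that of CLP for 7 and 9 of the 23 genes.

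Across the other populations, given here as a description, the groups of genes had different patterns. Both CLP arrays lay above all 15 other arrays for 18 of the 30 B program genes. Among the other 12, DN3 cells had a higher mean than CLP for 6 and NK cells for 5. Of the 20 late neutrophil markers that rose, 1 was above all 15 other arrays in both CLP arrays. All these groups hold only genes called between CLP and LMPP. The share of all genes tested was not counted for any pattern given in this paragraph. For the 23 multipotent genes, the HSC mean was above the CLP mean in 22, at or above the LMPP mean in 15, and the ETP mean was above the CLP mean in 21. In the other 8 the HSC mean lay below the LMPP mean, among them Flt3 and Il1r1, with HSC means of 7.39 and 6.24, below the LMPP levels of 9.61 and 10.24 for Flt3 and 9.18 in both arrays for Il1r1. In the EILP array, 22 of the 23 genes lay nearer to CLP than to LMPP. The NK mean was above the CLP mean for 7 of the 23 and the DN3 mean for 9, so low levels were not limited to CLP and EILP.

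Over all B program genes that rose, the 2 CLP arrays did not differ from each other in 1 direction. CLP replicate 2 was higher in 17 of the 30 and lower in 13, with a median gap of 0.13. It was more often the higher array in 2 of the lists. Among the 10 transcription factors it was higher in 7, with a median gap of 0.45. Among the 11 pre-B receptor genes it was higher in 8, with a median gap of 0.26. Igll1, Ebf1, Pax5, Cd79a, Pou2af1 and Irf4 were higher in replicate 2, and Vpreb2, Cecr2, Ikzf3 and Spib in replicate 1.

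Outside these lists, the largest rises among genes that the naming rule admits included Hspa1b, a heat shock protein gene, at 7.87 and 7.48 in CLP and 3.40 and 4.11 in LMPP (3.92 ± 0.70, adjusted p = 0.0043). Its near-identical copy Hspa1a, which is among the genes set aside, rose by 3.67 ± 0.20, and the EILP array stood at 6.99 for Hspa1b and 6.42 for Hspa1a. Of 20 immediate early and stress genes, both included, 4 rose and none fell. Slamf7, a receptor of NK and plasma cells, rose by 3.77 ± 0.35 (8.64 and 8.94 against 4.71 and 5.33, adjusted p = 2.5e-05). Apol11b rose by 3.88 ± 0.21, Sirpb1c, a signal regulatory receptor of myeloid cells, by 3.70 ± 0.35, Rnase12 by 3.13 ± 0.28 and Akap12, a kinase anchoring protein, by 2.92 ± 0.34, with adjusted p-values of 3.1e-07, 3.2e-05, 1.9e-05 and 0.00015. Apol11b and Sirpb1c were as high in the EILP array, at 7.71 and 7.47, as in CLP, whereas Rnase12 (5.0) and Akap12 (4.69) were not.

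Among genes outside the lists that the naming rule admits, which leaves out predicted and small RNA genes, the largest falls were those of Bex1 (-3.81 ± 0.26, adjusted p = 1.7e-06), Gprasp2, a sorting protein of G protein-coupled receptors (-3.50 ± 0.29, adjusted p = 9.1e-06), Tnip3, an inhibitor of NF-kappaB signalling (-3.17 ± 0.25, adjusted p = 6e-06), Sema3d, a secreted semaphorin (-2.69 ± 0.19, adjusted p = 2.1e-06), and Arhgap32 (-2.57 ± 0.18, adjusted p = 2.4e-06). Bex1 was at 4.71 and 5.20 in CLP and at 8.65 and 8.88 in LMPP, and was highest in HSC at 9.39. Sema3d was at 3.09 and 3.06 against 5.89 and 5.63, with HSC at 3.14 and ETP at 5.17. Bex1, Gprasp2 and Arhgap32 were thus high in HSC as well as in LMPP, and Sema3d was not.

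**Figure D5:**
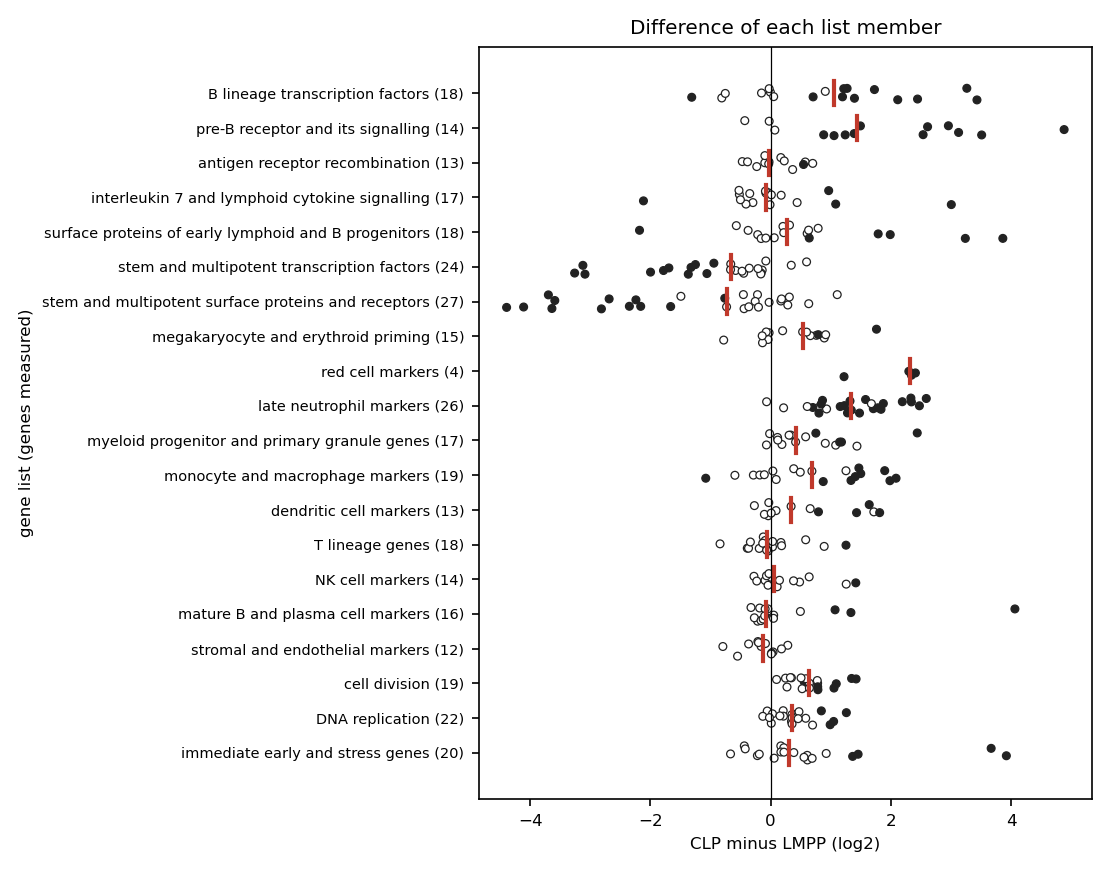
Difference of CLP minus LMPP (x axis, log2) for each measured gene of 20 lists (rows, number of genes in brackets); filled points had an adjusted p under 0.05 and red bars are medians. The pre-B receptor list, Cecr2 included, has a median of 1.44 and the late neutrophil list one of 1.33. The 2 multipotent lists lie at -0.67 and -0.73. Vertical scatter within a row has no meaning.

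Genes of other lineages moved with the neutrophil markers in part. The counts below stand against 3.75% of all genes called higher and 2.2% called lower. In the monocyte and macrophage list 8 of 19 rose and 1, Spic, fell (0 without CLP replicate 1 or LMPP replicate 2), with Csf1r, the receptor for the macrophage growth factor, higher by 1.90 ± 0.30 (adjusted p = 0.0018), while C1qa, C1qb and Mertk were not called. In the dendritic cell list 4 of 13 rose (2 without CLP replicate 2 or LMPP replicate 2), among them Siglech, a receptor of plasmacytoid dendritic cells, by 1.64 ± 0.41 (adjusted p = 0.029), and H2-Aa, a class II chain, by 1.81 ± 0.22 (adjusted p = 0.00021). Of 17 genes of primary granules and myeloid progenitors, 4 rose (1 without CLP replicate 2 or LMPP replicate 2, 2 without either of the others), and Mpo, the peroxidase of early granules, differed by 0.34 ± 0.23 with no call. The mean levels of these 3 lists were 6.04 and 6.06, 5.46 and 5.53, and 7.84 and 7.99 in CLP, and 5.28 and 5.41, 4.90 and 4.84, and 7.28 and 7.25 in LMPP.

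T and NK genes were nearly level. Of 18 T lineage genes 1 rose, the Notch target Hes1 (1.25 ± 0.14, adjusted p = 0.00015), with Cd3e and Cd3g below the median of all values in all 4 arrays. Of 14 NK markers 1 rose (0 without CLP replicate 1 or LMPP replicate 2), the granzyme gene Gzma (1.42 ± 0.32, adjusted p = 0.016), with Eomes and Il2rb below that median. Of 15 megakaryocyte and erythroid genes 2 rose (1 without any 1 of the 4 arrays), Car1 (1.76 ± 0.25, adjusted p = 0.00069) and Zfpm1 (0.79 ± 0.21, adjusted p = 0.037), beside the red cell markers given above.

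Genes of cell division were higher in CLP as a list, with 7 of 19 called, against 3.75% of all genes called higher. All 19 differences were above 0, with a median of 0.64 against -0.05 over all genes. The share of all genes with a difference above 0 was not counted. The number of calls was small without single arrays: 2 without CLP replicate 1, 1 without CLP replicate 2, 1 without LMPP replicate 1 and 4 without LMPP replicate 2. Aurka and Plk1, kinases of mitosis, rose by 1.35 ± 0.16 (adjusted p = 0.00015) and 1.42 ± 0.39 (adjusted p = 0.046), and Mki67, a marker of cycling cells, by 0.56 ± 0.15 (10.70 and 10.93 against 10.20 and 10.32, adjusted p = 0.037). For these 3 genes both CLP arrays were above all other arrays. DNA replication genes changed less, with 4 of 22 higher (Cdc6, Cdc45, Chaf1a and Uhrf1; 1 without CLP replicate 2, 2 without CLP replicate 1 or LMPP replicate 1) and a median difference of 0.36. Mcm6, a subunit of the replicative helicase, differed by -0.06 ± 0.16 and Pcna, the sliding clamp, by 0.21 ± 0.14, with no call.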

How the data were processed

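The authors deposited 1 table of log2 expression values for 41345 probe sets on 17 arrays. Per the submitters' processing notes it was made with Affymetrix Expression Console, version not given in the sources used here. Per the labels, RNA was extracted with Trizol and amplified with a NuGEN kit before hybridization. Array medians of the deposited log2 values lay between 4.45 and 4.62.

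The 23521 probe sets with 1 gene symbol in the array annotation were kept, 1814 with several and 16010 with none were left out, and the probe set with the highest mean stood for each of 1082 genes with several. A linear model with 1 mean per population over all 17 arrays (limma 3.58.1 under R 4.3.3, with its lmFit and eBayes steps, 8 residual degrees of freedom and 5.33 prior ones) gave two-sided tests of CLP minus LMPP, with Benjamini-Hochberg adjustment over 22180 genes. No filter on low values was applied. In simulated data of this design, 68% of genes changed by 1 log2 unit and 99% of those changed by 2 came back as called, beside 6 false calls. Precision is limited by having 2 arrays of CLP and 2 of LMPP: the SE had a median of 0.20.

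The members and 21 gene lists were chosen with earlier results of these data known. Named genes are all measured members of the B program and multipotent lists and the 15 largest changes in each direction that were called, reached 2-fold and had no overlap between arrays. That rule left out genes following neutrophil transcripts, sex-linked, predicted, small RNA and olfactory receptor genes, pseudogenes and antigen receptor segments. Genes of the other lists were named as examples after their values were seen. Alternatives were other scalings, fits on fewer arrays, a replicate block, array weights, a variance trend, a filter on dim genes, other uses of probe sets, and leaving out each array. The fit on bone marrow arrays was added after seeing the data.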

Additional observations from a re-analysis of the deposited data

How the results depend on the processing

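No named gene changed direction in any alternative while called, and 51 of 67 called named genes (19 of 30 B program and 18 of 23 multipotent genes) kept their call in every one that was run. The total of 1321 called genes became 636 to 749 when 1 array was left out, the higher calls 405 to 510 and the lower calls 231 to 283, in fits where the lone array left is assumed to vary like the others. The B program then had 21 to 23 rises and the multipotent lists 18 to 21 falls. A correlation above 0.9 in place of 0.8 set aside 146 genes rather than 521. The labels do not say what replicate numbers share. No sign of pairs was seen (the deviations of CLP and LMPP replicates correlated at 0.05, and none of 28 pairs of populations above 0.1). With the replicate number as a block, 1399 genes were called on the 4 arrays, against 1112 on the same arrays without it. On all numbered arrays the block gave 1352. Signal limits the sizes: 130 higher calls had an LMPP mean, and 145 lower calls a CLP mean, below the median of all values.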

Other observations

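Some antigen receptor gene segments, which the naming rule left out, were high in only 1 of the 2 CLP arrays. Igkv4-91, a kappa light chain segment, was at 8.12 in CLP replicate 1 and 4.08 in replicate 2, with LMPP at 4.06 and 4.01. Iglv1, a lambda segment, went the other way, at 3.61 and 8.14, with LMPP at 2.84 and 2.84, and Ighg3, a constant region of secondary antibody classes, was at 4.11 and 7.37 against 4.17 and 4.16. None of these 3 was called by limma (adjusted p of 0.217, 0.212 and 0.273). The genes were chosen after their values were seen.

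Other segments were high in both CLP arrays and in the EILP array. Igkj1, a kappa joining segment, was at 6.87 and 8.09 in CLP, 4.23 and 4.40 in LMPP and 6.73 in EILP (3.17 ± 0.30, adjusted p = 3.09e-05). Igh-VS107, a heavy chain variable segment, was at 8.35 and 8.76 against 4.95 and 4.64, with 8.23 in EILP (3.76 ± 0.52, adjusted p = 0.000674). Over the kappa segments, 3 of 14 were called higher and none lower, and Ighm, the heavy chain constant region that opens to transcription before rearrangement, was at 10.24 and 10.47 in CLP and at 9.80 and 10.23 in LMPP (0.34 ± 0.31, adjusted p = 0.689). Segments share sequence, so a probe set may record several of them.

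For Socs2, a feedback inhibitor of cytokine signalling, the kept probe set differed by -0.01 and the second by 1.45, at 5.02 and 4.58 in CLP against 3.42 and 3.28 in LMPP.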
